A study of Mus musculus with 22 samples.

Results

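Rod photoreceptors of AdipoR1-/- (KO) mice were compared with those of WT mice at postnatal day 19 (P19), in single-cell RNA-Seq of the retina. A cell counted as a rod when values above 0 were present for at least 4 of 7 rod genes (Pde6a, Pde6b, Nr2e3, Nrl, Cnga1, Rp1 and Guca1b) and for fewer than 2 of 10 genes of other classes (Arr3, Gnat2, Pde6c, Trpm1, Pcp2, Slc6a9, Gad1, Rlbp1, Glul and Slc17a6). By this rule 1034 of the 5439 WT cells and 1092 of the 5300 KO cells at P19 were rods, or 2126 of the 26764 cells of all 6 libraries. Since measured values of these 17 genes chose the cells, those genes were left out of every comparison below and are given only as a description.

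Mice of strain C57BL/6J, either WT or homozygous for the Adipor1 knockout, were sampled at P19, P25 and P30, and P19 was chosen by the study as an age before photoreceptor degeneration begins. Each single-cell library pooled 4 retinae, so that each age held 1 library per genotype, and the retinae of 1 library were not separate samples. Retinal RNA-Seq of whole tissue (bulk) at P30, with 4 libraries per genotype, gave a replicated readout in other samples at a later age. The knockout allele came from a strain of 129P2 origin and was backcrossed to C57BL/6J, and it was carried by every cell of the body rather than by rods alone.

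Rods catch light with a visual pigment packed into the discs of an outer segment, and a relay of transducin, phosphodiesterase and a cyclic nucleotide gated channel turns the signal into a change of voltage. The outer segment is rebuilt continuously, which makes rods heavy users of protein synthesis, membrane lipid and mitochondrial energy. Adipor1 encodes a membrane receptor of adiponectin with ceramidase activity, and it is needed for the retina to hold docosahexaenoic acid (DHA), the long-chain fatty acid of disc membranes.

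The cells were checked against markers that the rule did not use. Sag, the rod arrestin that ends the light response, was counted in 1028 of the 1034 WT rods and in 1084 of the 1092 KO rods. Transcripts were counted as unique molecular identifiers (UMIs), and levels are given as CPM, the UMIs of a gene scaled to the same total in every group of cells. The level of Sag was 7537 CPM in WT rods and 8306 CPM in KO rods, against 394 and 342 in cells outside the rule that held at least 3 bipolar cell markers. Those bipolar-like cells, 1392 in WT and 1195 in KO, and the 905 and 1009 Müller-like cells chosen in the same way are used below as other cells of the same 2 libraries. After each cell was thinned to 869 UMIs, Sag was still found in 27.2% of WT and 22.8% of KO bipolar-like cells, compared with 95.8% and 96.2% of rods. Median depths before thinning were 3985 and 3584 UMIs in bipolar-like cells, and 1231 and 1083 in rods. Whether Sag in bipolar-like cells came from free RNA or from a rod in the same droplet was not tested.

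The threshold of the rule fell where rod content rose steeply. WT cells just inside it, with exactly 4 rod genes, numbered 115 and held 29.9 Sag UMIs per 10000, while the 124 cells just outside, with 3 rod genes, held 7.45. In KO the 173 cells inside held 57.6 and the 135 cells outside held 12.4. For the second condition, WT rods with exactly 1 gene of another class (266 cells) held 40.5 Sag UMIs per 10000, and cells with exactly 2, which were not rods by the rule, numbered 144 and held 15.4. The matching KO values were 60.7 in 313 cells and 18.4 in 150 cells. Among the rule genes themselves, Nr2e3, which represses cone genes in rods, was found in 79.2% of WT and 65.8% of KO rods, and the other 6 rod genes were found in 80.9 to 97.9% of WT rods and in 76.0 to 98.3% of KO rods.

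Rods made up 19.0% of WT cells (95% exact binomial interval 17.98 to 20.08) and 20.6% of KO cells (19.52 to 21.72). These intervals, like all others of single libraries here, cover counting error only, and with 1 library per genotype no difference between WT and KO at P19 could be tested. The order of the shares depended on depth, as it was 6.74% in WT and 6.31% in KO once all cells were thinned to 1462 UMIs. The WT and KO libraries at P19 shared 4 cell barcodes, none of them among rods.

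A rod held a median of 1231 UMIs in WT (quartiles 994 and 1557) and 1083 in KO (869 and 1566). A tail of deeper cells carried much of the RNA in both libraries. Rods with more than 2 times the median of their own library, 144 (13.9%) in WT and 143 (13.1%) in KO, held 41.7% and 36.6% of all rod UMIs. These deep cells also held most of the RNA of several other cell types, counted here over markers outside the rule. Summed over 7 amacrine cell markers the level was 5.79 UMIs per 10000 in WT and 3.30 in KO over all rods, but 1.06 and 0.980 without the deep cells. The 6 horizontal cell markers went from 7.04 and 5.45 to 1.15 and 1.08 in the same way. Summed over 8 endothelial and mural markers it was 5.22 and 1.59 over all rods, but 0.614 and 0.471 without them, where Pdgfrb, Acta2 and Kcnj8 were at 0 in KO. Cone markers were spread otherwise, since 316 of their 509 UMIs in WT and 609 of 884 in KO were in rods that were not deep. Of these sums the single gene Gnb3 gave 198 in WT and 616 in KO over all rods, and 91 and 417 in rods that were not deep. No doublet caller was run, and whether the deep cells were doublets was not tested. The gene lists and many of the genes are therefore given for all rods and again for the 890 WT and 949 KO rods of at most 2 times the median, called shallower rods here, a limit that was added after the data were seen. Where a gene has 1 value at P19, it is over all rods.

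**Figure D1:**
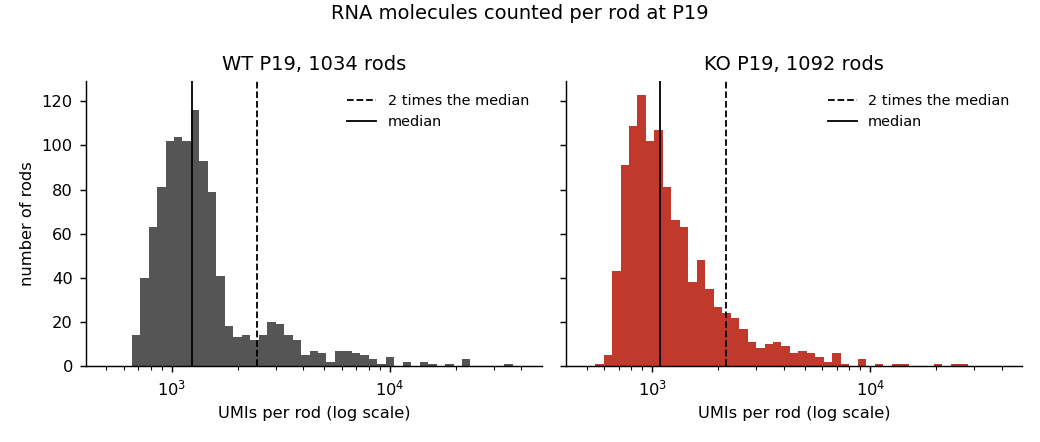
Distribution of UMIs per rod (x axis, log scale) in the WT and KO libraries at P19, with a line at 2 times the median of each library (2461 UMIs in WT, 2166 in KO). Most rods of both genotypes lie between 578 and 2500 UMIs, and a thin tail reaches 34873 UMIs in WT and 27027 in KO.

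Adipor1 itself was measured first, as a check of the labels. The gene held 758 UMIs in WT rods and 113 in KO rods, or 411 CPM (95% Poisson interval 382 to 441) and 67.5 (55.6 to 81.2). The log2 ratio of KO to WT was -2.60 (interval -2.90 to -2.32), and it was -2.68 in shallower rods, -1.85 in bipolar-like cells and -1.83 in Müller-like cells. The RNA was thus lower in KO in each of these cell classes but was not gone. The libraries count the 3′ end of transcripts, and where that end lies relative to the change in the knockout allele was not stated, so that the remaining UMIs do not show whether a working transcript was left. In bulk retina at P30 the 4 WT libraries held 605, 601, 589 and 607 CPM of Adipor1 and the 4 KO libraries 142, 138, 136 and 138. The groups did not overlap, and the log2 difference was -2.11 ± 0.04 (SE, n = 4 per group; edgeR adjusted p = 4.61e-13).

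The close relatives of Adipor1 and the other ceramidases were sparse in rods. Adipor2, the second adiponectin receptor, held 71 UMIs in WT and 82 in KO (log2 0.35, interval -0.13 to 0.83). Asah1, the acid ceramidase of lysosomes, held 73 and 92 UMIs (0.47, 0.02 to 0.94). Acer2 and Acer3, ceramidases of the Golgi and endoplasmic reticulum, had 23 against 30 and 24 against 29 UMIs, and Asah2 had 8 against 2. Differences of this size could not be told from counting error for any of these genes except Asah1, whose interval ended just above 0 over all rods, and which had 31 and 61 UMIs in shallower rods (0.98, 0.35 to 1.67). Of the whole list of 33 ceramide and sphingolipid genes, 24 had at least 50 UMIs and their median log2 ratio was 0.14, against 0.13 for the 18 in shallower rods. Cers4, a ceramide synthase, was lower in KO (800 UMIs in WT, 510 in KO, log2 -0.51, and -0.69 in shallower rods), as was Col4a3bp, which carries ceramide from the endoplasmic reticulum to the Golgi (240 and 118 UMIs, -0.88).

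Over all rods, 8536 genes had at least 50 UMIs in the 2 genotypes together. Their median log2 ratio was -0.01, and 540 genes (6.33%) were at least 1.5-fold higher in KO and 631 (7.39%) at least 1.5-fold lower. In shallower rods 6547 genes had that many UMIs, with a median of 0.02, and 776 (11.9%) were at least 1.5-fold higher and 554 (8.46%) at least 1.5-fold lower. For scale, WT rods at P25 were set against WT rods at P19, which are different animals of 1 genotype. These WT libraries differed in age and, by the Xist counts given below, in sex. Their deep rods held 56.0% of rod UMIs at P25 and 41.7% at P19. Over all rods this comparison gave 675 genes higher (7.63%) and 275 lower (3.11%) of 8846. The share higher was thus larger there than in KO against WT (6.33%). In shallower rods it gave 322 genes higher (5.28%) and 215 lower (3.52%) of 6101. In KO against WT bipolar-like cells the same fold was passed by 384 genes up (3.57%) and 294 down (2.73%) of 10750. In Müller-like cells it was passed by 843 up (6.71%) and 562 down (4.47%) of 12559.

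Ribosomal protein genes were higher in KO rods almost without exception. Of the 49 genes of the large subunit 48 were higher over all rods with a median log2 ratio of 0.35, and in shallower rods all 49 were higher with a median of 0.64, 32 of them by at least 1.5-fold. Of the 33 genes of the small subunit all were higher, with medians of 0.44 over all rods and 0.76 in shallower rods, 23 there by at least 1.5-fold. Rps27a, made as a fusion with ubiquitin, went from 1577 UMIs in WT to 2540 in KO (0.83, and 1.15 in shallower rods), and Rps24 from 1577 to 2250 (0.65 and 1.13). Rpl13 went from 1799 to 1909 UMIs (0.23 and 0.58). Many of these genes have near-identical pseudogenes that could take or give reads, which bears on single members more than on the list. In bipolar-like cells the medians were 0.16 and 0.20 for the large and small subunits, and in Müller-like cells 0.09 and 0.13. The gap between rods and those cells was not tested.

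Translation factors, which start and lengthen the protein chain on the ribosome, were also higher. Of 38 genes 29 were higher over all rods (median 0.15) and 34 in shallower rods (median 0.41, 8 by at least 1.5-fold). Eif1, which helps to choose the start codon, had 2028 UMIs in WT and 3246 in KO (0.82, and 1.26 in shallower rods). Eef1a1, which brings aminoacyl-tRNA to the ribosome, had 1585 and 1758 (0.29 and 0.65). The medians of the list in bipolar-like and Müller-like cells were -0.02 and -0.12.

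The nuclear genes of the mitochondrial respiratory chain were higher as well. Of 37 genes of complex I, 35 were higher over all rods (median 0.33) and 34 in shallower rods (0.55, 17 by at least 1.5-fold). Of 25 genes of complexes II to IV, 22 were higher in both sets (medians 0.33 and 0.63), and all 16 genes of the ATP synthase were higher (0.31 and 0.52). For complex I, complexes II to IV and the ATP synthase, the medians at P25 were -0.06, -0.04 and -0.07 over all rods. In shallower rods at P25 they were 0.32, 0.35 and 0.31. At P30 they were 0.09, 0.15 and 0.08 over all rods, and 0.12, 0.15 and 0.12 in shallower rods. Cox6c and Cox8a, small subunits of cytochrome c oxidase, went from 1001 to 1278 UMIs (0.49, and 0.97 in shallower rods) and from 1146 to 1464 (0.49 and 0.91). Of the 13 genes of the mitochondrial genome 11 were higher over all rods (median 0.25) and 12 in shallower rods (0.42), with mt-Atp6 at 12933 and 15023 UMIs (0.36 and 0.58). The median of these genes was -0.19 at P25 and -0.08 at P30 over all rods, and -0.20 and -0.07 in shallower rods. In bipolar-like cells at P19 the medians were 0.22 (complex I), 0.24 (complexes II to IV), 0.20 (ATP synthase) and 0.04 (mitochondrial genome). In Müller-like cells they were 0.06, 0.10, 0.0094 and 0.30. Whether rods differed from those cells was not tested.

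**Figure D2:**
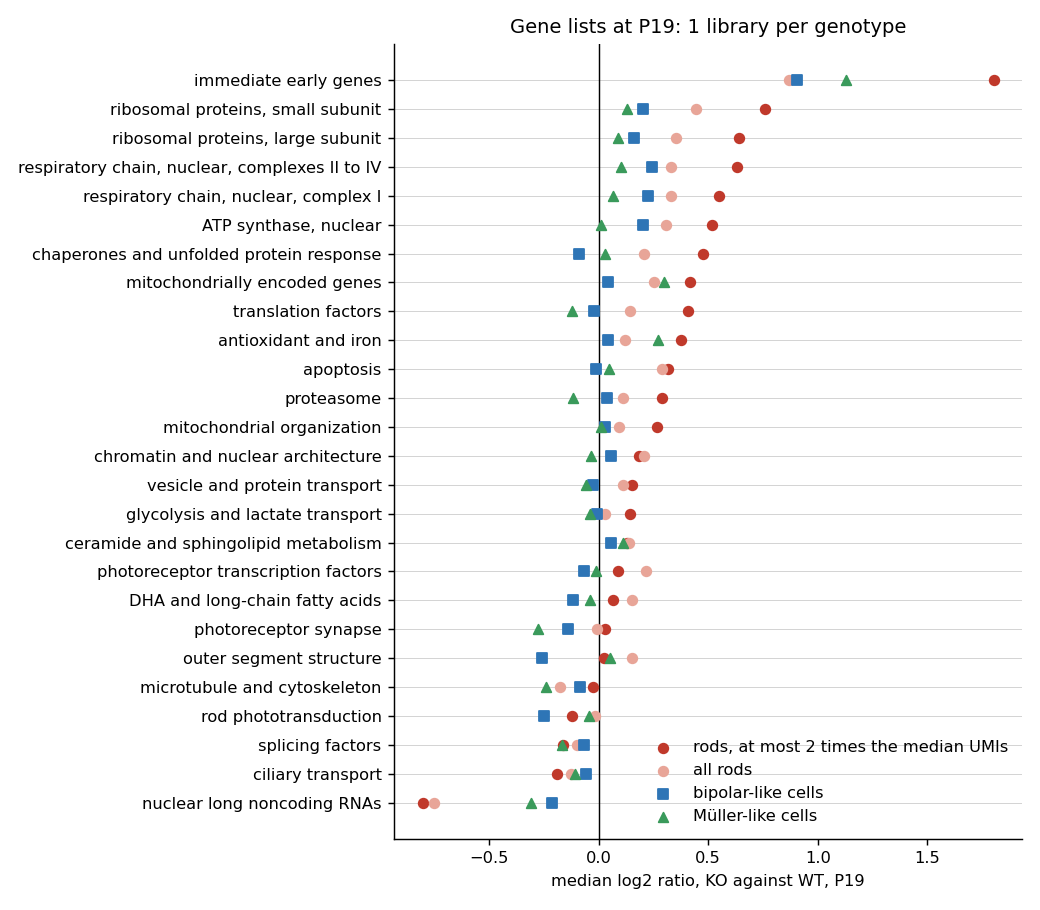
Median log2 ratio of KO to WT (x axis) for each gene list (y axis) in P19 rods, over all rods and over rods of at most 2 times the median UMIs, and in bipolar-like and Müller-like cells. In rods the ribosomal and mitochondrial respiratory lists lie between 0.25 and 0.76, the immediate early genes at 0.87 and 1.80, and the noncoding RNAs at -0.75 and -0.80, beside a median over all genes of -0.01 and 0.02.

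The shift of the ribosomal lists was present in most single rods. With every rod thinned to 869 UMIs, which left 911 WT and 820 KO rods and dropped 123 and 272 shallower ones, the genes of the large subunit made up a median of 1.61% of the UMIs of a WT rod and 2.53% of a KO rod (1.64% and 2.47% unthinned), and 87.1% of KO rods were above the WT median. For the small subunit the medians were 1.27% and 1.96%, for complex I 0.690% and 1.04%, and for translation factors 0.690% and 1.04%. The distributions overlapped, as the upper quartile of WT rods for the large subunit was 2.30% and the lower quartile of KO rods 1.96%. Rod phototransduction genes made up 5.64% and 5.81%, with 53.2% of KO rods above the WT median. Rods of 1 library are not replicates, so these shares describe the spread between cells and give no test of genotype.

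**Figure D3:**
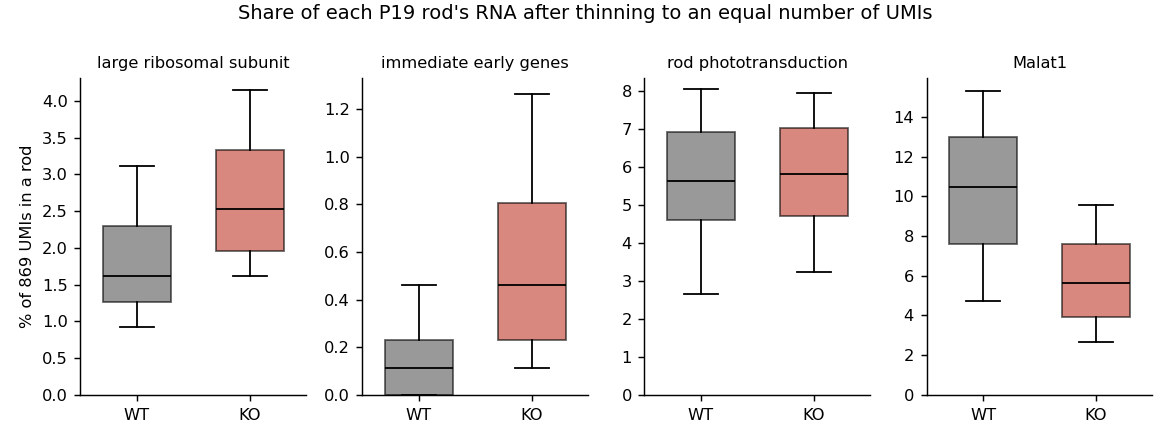
Percent of the UMIs of a rod (y axis) taken by each gene list, for WT and KO rods at P19 thinned to 869 UMIs (911 and 820 rods). Boxes are quartiles with the median, and whiskers run from the 10th to the 90th percentile of cells. The KO median lies above the WT median for the large ribosomal subunit, and below it for Malat1.

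The size of the ribosomal difference changed with the depth of the cell. Summed over the large subunit, the log2 ratio was 0.52 (95% interval 0.46 to 0.57) in rods of up to 1000 UMIs, 0.60 (0.56 to 0.64) in rods above 1000 and up to 1500 and 0.90 (0.85 to 0.95) in rods above 1500 and up to 2500. Above 2500 UMIs, where 142 WT and 107 KO rods remained, it was 0.11 (0.08 to 0.14). In those deepest rods Sag was down to 37.3 UMIs per 10000 in WT and 37.5 in KO, from 97.4 and 103 in the shallowest rods. Summed over the immediate early genes, the log2 ratio was 1.81 in the shallowest rods and 0.63 in the deepest. The part of other cell types in the smaller ratios of the deepest rods was not tested.

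**Figure D4:**
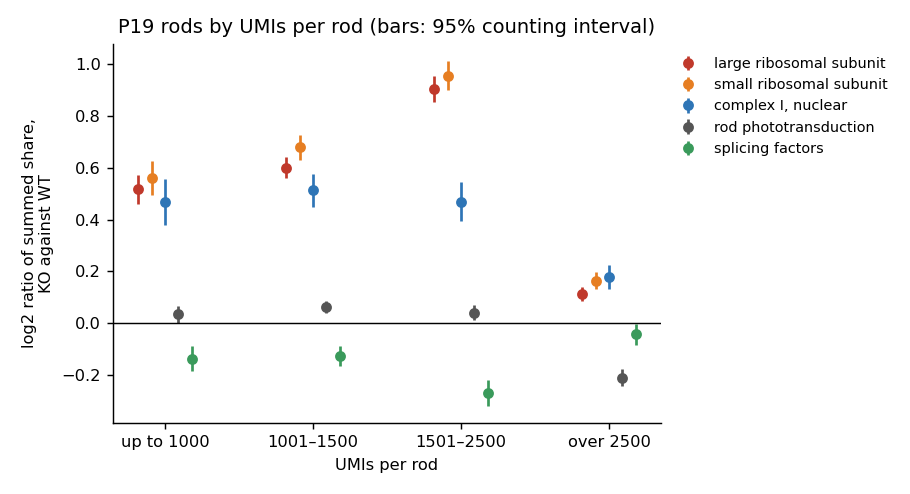
Log2 ratio of KO to WT of the summed share of each gene list (y axis) in rods of up to 1000, up to 1500, up to 2500 and over 2500 UMIs (x axis), with 95% counting intervals. The ribosomal lists lie above 0 in each of the 4 bins and are lowest in the deepest.

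Immediate early genes, which are switched on within minutes of a stimulus, and also when tissue is dissociated, showed larger differences. Of 15 genes 13 were higher in KO over all rods (median log2 ratio 0.87, 9 by at least 1.5-fold), and in shallower rods 12 of 13 were higher (median 1.80, 10 by at least 1.5-fold). Fos, a subunit of the AP-1 transcription factor, had 917 UMIs in WT and 2941 in KO (log2 1.82, interval 1.71 to 1.93, and 2.12 in shallower rods), and it was present in 299 of the WT and 762 of the KO rods. Junb, its partner, had 244 and 740 UMIs (1.74, and 2.63 in shallower rods). Egr1 had 382 and 1113 (1.68 and 1.86), and Nr4a1 49 and 157 (1.81 and 2.66). These genes were also higher in the other cells of the KO library, with list medians of 0.90 in bipolar-like and 1.13 in Müller-like cells. Thinned to 869 UMIs, Fos was found in 21.7% of WT and 58.0% of KO rods, in 27.2% and 43.4% of bipolar-like cells, and in 49.8% and 68.6% of Müller-like cells. The 2 suspensions were prepared separately, and handling of a library and genotype cannot be told apart.

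Genes that photoreceptors and glia raise after injury were sparse in WT rods and held more UMIs in KO rods. The 12 genes of the list summed to 163 UMIs in WT and 961 in KO over all rods (0.883 and 5.74 per 10000), and to 84 and 657 in shallower rods. Of the 12, 6 had at least 50 UMIs, and all of these but Stat3 reached that number only through KO, so that their direction was partly set by the filter. Cebpd, a stress-induced transcription factor, had 37 UMIs in WT, 29 of them in 5 rods, and 331 in KO rods, spread over 138 cells (3.28, interval 2.81 to 3.83, and 3.70 in shallower rods). Fgf2, a growth factor that protects photoreceptors, had 22 and 225 UMIs (3.47, 2.86 to 4.20, and 3.44 in shallower rods), although it overlaps an antisense gene and the strand setting of the counting is not given. Stat3, the transcription factor of cytokine signalling, had 59 and 191 UMIs (1.83, 1.41 to 2.28, and 1.91 in shallower rods). Edn2, an endothelin that damaged photoreceptors release, had 7 and 53 UMIs (2.98, 1.92 to 4.44), and was named here after its values were seen. Socs3, which damps cytokine signalling and was also named after its values were seen, had 9 and 53 UMIs (2.63). Gfap, a filament of reactive glia, came from a few cells, as its 59 KO UMIs were in 7 rods. Of the 6 genes under the filter, Lif was at 0 in both genotypes. Bcl3 (0 and 9 UMIs), Serpina3n (0 and 6) and Cdkn1a (12 and 28) had more UMIs in KO, and Osmr (5 and 1) and Ednrb (10 and 5) had fewer.

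Several of these genes are also made by Müller cells. Cebpd stood at 366 CPM in WT and 1251 in KO Müller-like cells, while Fgf2 stood at 6.89 and 16.2 there. With cells thinned to 869 UMIs, Fgf2 was found in 1.43% of WT and 11.7% of KO rods and in 0.901% and 1.80% of Müller-like cells. Cebpd was found in 0.878% and 10.1% of rods, in 0.221% and 1.45% of bipolar-like cells, and in 22.9% and 40.4% of Müller-like cells. The summed level of 8 Müller markers outside the rule was 1.77 UMIs per 10000 in WT and 3.15 in KO shallower rods, against 109 in WT Müller-like cells, with none of the 8 at 0. Dbi, an acyl-CoA binding protein, was the member that stood out (157 and 366 UMIs, 1.36, and 2.07 in shallower rods), and Apoe had 451 and 164 (-1.32, but 0.43 in shallower rods). The part of Müller cell RNA in the rod values was not tested.

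Genes of the unfolded protein response and of amino acid supply were higher in KO rods too. Of 31 genes of the chaperone and unfolded protein list 23 were higher over all rods (median 0.21) and 25 of 28 in shallower rods (median 0.48, 12 by at least 1.5-fold). Asns, which makes asparagine, had 34 UMIs in WT and 173 in KO (2.47, interval 1.95 to 3.06), and 3.60 in shallower rods, where 10 UMIs were counted in WT and 125 in KO. Atf4, the transcription factor that starvation and protein stress induce, had 762 and 1295 UMIs (0.91, and 0.80 in shallower rods). Abundant cytosolic chaperones were close to level, with Hsp90aa1 at 6128 and 5782 UMIs (0.06) and Hsp90ab1 at 1386 and 1061 (-0.24, and 0.13 in shallower rods).

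Genes known as targets of Atf4 were looked at next, chosen after their values were seen. Mthfd2, a mitochondrial enzyme of one-carbon metabolism, had 15 UMIs in WT and 132 in KO (3.24, and 3.76 in shallower rods). Gars, the glycyl-tRNA synthetase, had 75 and 207 (1.60 and 2.08), and Slc38a2, an amino acid transporter, had 190 and 461 (1.42 and 1.51). Atf3, a relative of Atf4, had 16 and 124 (3.06 and 3.44), and Ddit3, which promotes cell death under lasting stress, had 185 and 387 (1.20 and 1.45). Most of these genes had smaller ratios in the other cells of the same libraries. Asns had a log2 ratio of 0.05 in bipolar-like and -0.30 in Müller-like cells, Gars -0.08 and -0.28, and Slc38a2 -0.31 and -0.19. Ddit3 was higher in KO there too, at 0.19 and 0.81. Atf3, which is also an immediate early gene, was at 1.45 and 3.85. Whether rods and the other cells differed was not tested.

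Promoters of these genes were searched for the letters TGATGNAA on both strands, the core of the composite element that Atf4 binds with a C/EBP partner. Of 9 of these genes with a promoter in the RefSeq table (GRCm38.p6), 4 held a match in the 250 bases before the start of the gene, namely Asns, Gars, Atf3 and Chac1 (from base -193). Of all 32851 promoters listed there, 1134 (3.45%) held one, and Mthfd2, Slc38a2, Ddit3, Atf4 and Trib3 held none in this window. Chac1 and Trib3 were searched too, although their UMI counts are not given here. The 9 genes were picked by what is known of Atf4 and after values were seen. Their share beside that of all promoters is therefore no test. The 3 matches nearest to a start are shown so that the element can be read beside the UMI counts of its gene, with the match in capitals, each sequence 5′ to 3′ on the strand of its gene. Asns is at chr6:7693210-7693309 (minus strand, match from base -23), Gars at chr6:55037901-55038000 (plus strand, from base -30) and Atf3 at chr1:191183384-191183483 (minus strand, from base -110), counted back from the start of the gene. In Gars and Atf3 the match is on the opposite strand and so reads as its reverse complement. A match is a description of the letters and does not show that the site is used.
Asns: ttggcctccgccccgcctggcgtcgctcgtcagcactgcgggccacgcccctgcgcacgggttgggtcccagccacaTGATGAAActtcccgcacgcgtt
Gars: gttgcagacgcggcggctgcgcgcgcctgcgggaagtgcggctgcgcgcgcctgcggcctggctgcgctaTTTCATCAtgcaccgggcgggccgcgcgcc
Atf3: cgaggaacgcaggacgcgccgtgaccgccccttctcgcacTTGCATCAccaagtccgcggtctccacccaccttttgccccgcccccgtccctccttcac

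Phototransduction genes outside the rule were close to level at P19. Of 19 genes 8 were higher and 11 lower over all rods, with a median of -0.01 and none past 1.5-fold, and the same 8 and 11 counts held in shallower rods with a median of -0.12. Sag was at 13910 UMIs in WT and 13905 in KO (log2 0.14, interval 0.11 to 0.17), and Pdc, phosducin, which binds transducin, at 11405 and 10910 (0.08, interval 0.04 to 0.11). Rdh12, a retinol dehydrogenase of the visual cycle, was the furthest below WT, at 2036 and 1311 UMIs (-0.49, and -0.63 in shallower rods). Of 15 outer segment genes 12 were higher (median 0.15, and 0.03 in shallower rods). Prph2 and Rom1, the partner proteins of the disc rim, were at -0.06 and -0.03. At P25 the direction of the phototransduction list depended on the depth of the rods, as its median was 0.38 over all rods, with 17 of 20 genes higher, and -0.19 in shallower rods, with 5 of 19 higher. At P30 it was below 0 in both sets (-0.43 and -0.44). Pdc was at 0.03 (interval -0.01 to 0.07) over all rods and at -0.51 in shallower rods at P25, and at -0.90 in both at P30. Sag was above WT in both sets, at 1.14 and 0.55 at P25 and at 0.75 and 0.74 at P30.

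The ratios of photoreceptor transcription factors went both ways, with 9 of 13 higher in both sets and medians of 0.22 over all rods and 0.09 in shallower rods. Neurod1, which keeps photoreceptors alive, was higher (2275 and 3092 UMIs, log2 0.58, interval 0.50 to 0.66), while Rorb was level (1291 and 1161, -0.01). Mef2c, a transcription factor of the MEF2 family, was lower (444 and 166 UMIs, -1.28, and -1.28 in shallower rods too), and was named after its values were seen. Of the 31 ciliary transport genes 13 were higher and 18 lower (median -0.12, and -0.19 in shallower rods). Rpgrip1, which anchors proteins in the connecting cilium, went from 4105 to 2352 UMIs (-0.66), and Unc119, which carries lipidated proteins to the outer segment, from 4089 to 4942 (0.41). Arl6, a small GTPase of the BBSome, was the furthest above WT in this list (513 and 1136 UMIs, 1.29), and was picked for that.

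The splicing factor list leaned the other way from the ribosomal lists by a small amount. Of 67 genes 43 were lower in KO over all rods with a median of -0.10, none of the 67 by 1.5-fold, and 43 of 66 were lower in shallower rods with a median of -0.16. Hnrnpu went from 1566 to 1050 UMIs (-0.44), while Ddx5 (3494 and 3479, 0.13) and Rbm39 (1610 and 1511, 0.05) were close to level. In single rods thinned to 869 UMIs the list made up a median of 2.30% in WT and 2.07% in KO. Its median was -0.06 in bipolar-like and -0.17 in Müller-like cells.

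Long noncoding RNAs kept in the nucleus were lower. Of 8 listed, 6 had at least 50 UMIs and were lower over all rods (median -0.75, 5 by at least 1.5-fold), as were the 4 with that many in shallower rods (-0.80). Malat1, the most abundant of them, held 159185 UMIs in WT and 90261 in KO (-0.68), or 8.63% and 5.39% of all rod UMIs. The difference was present at each depth, at 11.6% and 7.19% in rods of up to 1000 UMIs and at 5.31% and 4.07% above 2500. In thinned rods the median was 10.5% in WT and 5.64% in KO, with 5.73% of KO rods above the WT median. Malat1 was lower in bipolar-like (-0.41) and Müller-like (-0.25) cells as well. The ratio of Malat1 was -0.28 at P25 and 0.14 at P30 over all rods, and -0.49 and 0.13 in shallower rods.

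The remaining lists were mixed. The proteasome had 24 of 31 genes higher (median 0.11, and 0.29 in shallower rods) and the antioxidant and iron genes 14 of 20 (0.12 and 0.38), with ferritin heavy chain Fth1 at 2694 and 3161 UMIs (0.37). For photoreceptor synapse genes the median was -0.01 (14 of 28 higher, and 0.03 in shallower rods), for glycolysis 0.03 (14 of 22, and 0.14) and for vesicle and protein transport 0.11 (28 of 47, and 0.15). The microtubule and cytoskeleton genes were at -0.17 (15 of 44 higher) over all rods and at -0.03 in shallower rods. Of 23 apoptosis genes 14 had at least 50 UMIs, 10 of them higher, with a median of 0.29 (0.31 in shallower rods). Xiap, an inhibitor of apoptosis, was lower at 730 and 449 UMIs (-0.56, interval -0.73 to -0.39). Bbc3, a protein that triggers apoptosis downstream of p53, was higher at 12 and 58 (2.37), and was picked after its values were seen. It reached 50 UMIs only through KO, so that its direction was partly set by the filter. In shallower rods no apoptosis gene with at least 50 UMIs was above 0.61. Among the 17 fatty acid genes, 12 were higher with a median of 0.15 (0.06 in shallower rods). Elovl4, which makes very long chain fatty acids, was nearly level (963 and 1024 UMIs, 0.23), and Fads2, a desaturase on the path to DHA, had 28 and 81 (1.66) and was also picked after the values were seen, as was Scd2, a stearoyl-CoA desaturase (166 and 488 UMIs, 1.69, and 3.02 in shallower rods). Fads2, like Bbc3, passed the filter only through KO.

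Gnb3, the transducin beta subunit that cones and ON bipolar cells use in place of the rod form, held 198 UMIs in WT rods and 616 in KO rods (log2 1.78, interval 1.54 to 2.02, and 2.21 in shallower rods). Thinned to 869 UMIs it was found in 6.48% of WT and 25.9% of KO rods and in 67.1% and 67.8% of bipolar-like cells, and in Müller-like cells in 2.70% and 4.19%. In bipolar-like cells its log2 ratio was 0.17. Other cone markers outside the rule did not share this size, with Pde6h at 82 and 90 UMIs (0.27), Gngt2 at 62 and 88 (0.64) and the cone opsin Opn1sw, named after its values were seen, at 72 and 35 (-0.89). The summed level of 10 bipolar markers outside the rule was 3.89 UMIs per 10000 in WT and 3.93 in KO shallower rods, with none of the 10 at 0. Rbp3, the retinoid carrier of the space around the photoreceptors, and also named after its values were seen, went from 1098 to 2867 UMIs (1.52).

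The genes furthest from WT over all rods, with at least 200 UMIs, mostly had the larger part of their UMIs in a handful of rods. Whether that RNA came from other cells was not tested. Of the 10 furthest above WT, Hba-a1, Hba-a2, Hbb-bs and Hbb-bt are haemoglobin genes of red blood cells. Hbb-bs had 25 UMIs in WT and 4135 in KO, 4133 of them in 5 rods, and in shallower rods its ratio was -2.02. The other 6 were Fgf2, Cebpd, Asns, Stat3, Fos and Nr4a1. Of the 10 furthest below WT, Acta2 and Tagln mark smooth muscle, and Pmel and Dct mark pigment cells. Acta2 had 417 UMIs in WT, 416 of them in 5 rods, and 0 in KO, and Tagln 358 in 5 WT rods and 1 in KO. Cartpt, a neuropeptide, had 1168 UMIs in WT, 1032 of them in 5 rods, and 103 in KO, and its ratio turned from -3.36 over all rods to 0.99 in shallower rods. Myl9, Ptgds and Mgll were likewise held mainly by 5 WT rods (184 of 193, 288 of 363 and 151 of 216 UMIs). Of these 10, those that still had at least 50 UMIs and a fold of 1.5 or more below WT without the deep cells were Adipor1, Ptgds (-0.73) and 2810030D12Rik, a gene of unknown function (153 and 50 UMIs over all rods, -1.46, and -1.59 in shallower rods).

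Crystallins, the proteins of the lens, were higher in the WT library at P19 with and without the deep cells. Summed over 13 crystallin genes the level was 7.40 UMIs per 10000 in WT and 0.245 in KO over all rods, and 10.9 and 0.179 in shallower rods, where 10 of the 13 were at 0 in KO. The lens is removed during dissection. The rods of the other libraries held few of these UMIs, as the 13 genes summed to 18 in WT and 59 in KO at P25 and to 26 and 28 at P30, so that 1 of the 3 WT libraries stood apart from the rest.

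The later ages were compared with P19 in other libraries, so that no control was shared. Of the 776 genes at least 1.5-fold higher in shallower KO rods at P19, 664 were higher at P25 and 576 at P30, when 54.3% and 52.7% of all 6547 genes were. A fold of 1.5 was passed again by 309 of them at P25 and by 190 at P30, when 11.4% and 8.49% of all 6547 genes passed it upwards. Of the 554 lower genes 444 were lower at P25 and 366 at P30, against 45.7% and 47.3% of all genes. In shallower rods the median of the large ribosomal subunit was 0.64 at P19, 0.45 at P25 and 0.12 at P30, and over all rods it was 0.35, 0.15 and 0.13. For the small subunit it was 0.76, 0.44 and 0.19 in shallower rods and 0.44, 0.22 and 0.18 over all rods. The immediate early genes were at 1.80, 0.95 and 0.23, and over all rods at 0.87, 0.70 and 0.34. Cebpd of the injury list was at 3.70, 5.29 and 5.85 in shallower rods (3.28, 4.86 and 5.74 over all rods), and Gnb3 at 2.21, 3.69 and 4.37 (1.78, 3.71 and 3.91). Müller markers outside the rule had medians of 0.25, 1.20 and 1.04 in shallower rods, over the 4, 4 and 3 genes with at least 50 UMIs. Over all rods their medians were 0.37, 0.94 and 0.84. The part of Müller cell RNA in the Cebpd ratios at the later ages was not tested. The differences between ages were not tested. Both P30 libraries were sequenced in another batch and on another instrument than those of P19 and P25, so that age and batch cannot be told apart at P30. The P25 libraries also differed in sex, since Xist had 6024 UMIs in WT rods and 4 in KO rods at that age, compared with 1 and 0 at P19.

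With the 3 ages as replicates of the genotype, 6 libraries in all, limma found few genes over all rods and more over shallower rods. At an adjusted p under 0.05, 142 of 11298 genes (1.26%) were called over all rods, 125 higher and 17 lower, and 764 of 9594 (7.96%) over shallower rods, 516 higher and 248 lower. Only 2 residual degrees of freedom were left, and the P19 libraries are part of this fit. The counts depended on the ages used: over all rods 62 genes were called without P19 and 46 without P30, and over shallower rods 362 without P25 and 1224 without P30. Of the 12 injury genes 6 had the 50 UMIs in sum that the fit required, which genes high in KO alone can reach, and these rose in shallower rods, as did 10 of 15 immediate early genes, 11 of 33 chaperone and unfolded protein genes, 12 of 49 and 13 of 33 ribosomal genes of the large and small subunits, 6 of 37 genes of complex I and 6 of 17 fatty acid genes. None of these lists held a gene that fell. Of the 20 phototransduction genes 3 fell and none rose, and of 67 splicing factors 1 rose and 1 fell. Over all rods no ribosomal or respiratory chain gene was called.

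Adipor1 fell by 2.46 on the log2 scale in that fit of shallower rods (SE 0.15, limma adjusted p = 1.84e-08). Asns rose by 3.45 (SE 0.20, limma adjusted p = 1.07e-08), Fgf2 by 3.57 (SE 0.19, 2.89e-09), Cebpd by 4.83 (SE 0.26, 3.50e-09) and Gnb3 by 3.41 (SE 0.25, 2.01e-07). Junb rose by 2.27 (SE 0.16, 6.31e-08) and Fos by 1.28 (SE 0.23, 0.00169). These genes were called over all rods as well, except Fos, whose limma adjusted p was 0.0886 there. Asns, Fgf2, Cebpd, Gnb3, Junb and Fos were named by ratios in these same libraries. Their p-values are therefore not independent of that choice. Rabgef1, a guanine nucleotide exchange factor of endosomes named after its values were seen, fell by 1.33 (SE 0.13, limma adjusted p = 3.20e-06), with 702 and 260 UMIs at P19, and Mef2c fell by 1.13 (SE 0.15, 7.30e-05). Sag, Pdc and Malat1 were not called (limma adjusted p = 0.420, 0.326 and 0.818).

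**Figure D5:**
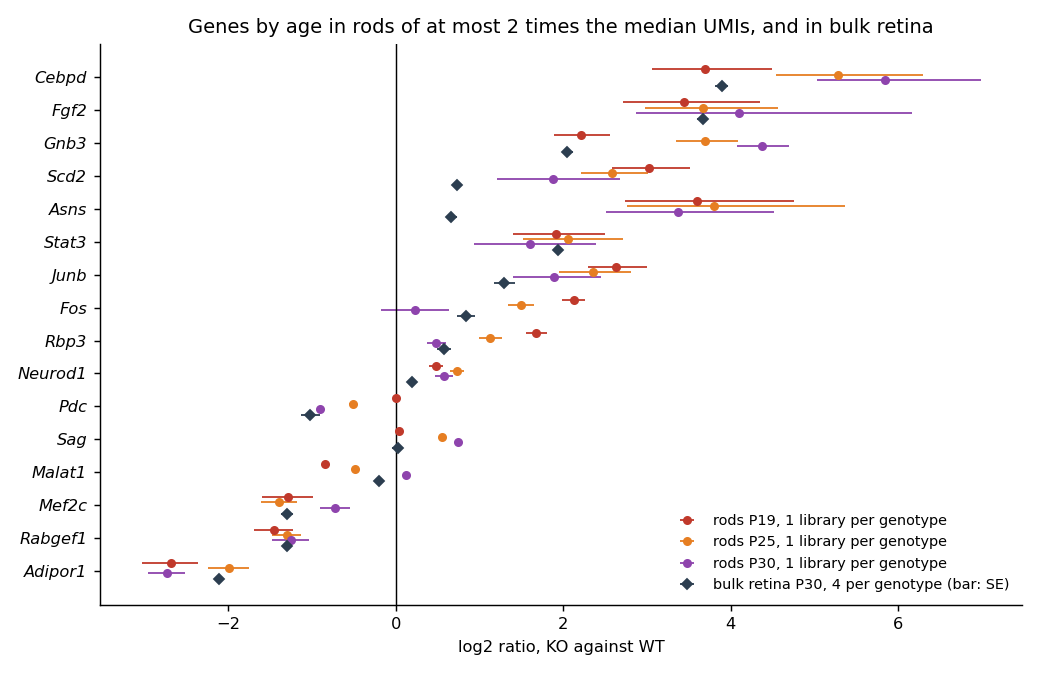
Log2 ratio of KO to WT (x axis) for named genes (y axis) in rods of at most 2 times the median UMIs at P19, P25 and P30, with 95% counting intervals, and the difference in bulk retina at P30 with its SE (n = 4 per group). Adipor1, Rabgef1 and Mef2c lie below 0 at each age, Pdc is at 0.01 at P19 and -0.90 at P30, and Cebpd, Fgf2, Gnb3 and Stat3 lie above 1.5 throughout.

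In bulk retina at P30, 5990 of 19381 genes (30.9%) were called by edgeR, 3144 higher (16.2%) and 2846 lower (14.7%). In whole tissue fewer rods and less RNA per rod cannot be told apart. Of 20 phototransduction genes 19 fell and none rose (median -0.74), whereas of the 49 ribosomal genes of the large subunit 2 rose and 3 fell (median 0.01), and of the 33 of the small subunit 1 rose and 2 fell. Of the 12 injury genes 11 rose, and of 16 immediate early genes 10 rose and 1 fell. Of the 13 genes of the mitochondrial genome 10 fell. Of the nuclear respiratory genes none rose, and 8 of 37 of complex I, 4 of 25 of complexes II to IV and 3 of 17 of the ATP synthase fell. Gnb3 stood at 381, 320, 356 and 338 CPM in the 4 WT libraries and at 1422, 1388, 1414 and 1541 in the 4 KO libraries, without overlap (log2 2.05 ± 0.07 SE, edgeR adjusted p = 7.96e-11). Stat3 stood at 66.0, 76.0, 67.6 and 69.4 CPM in WT and at 250, 251, 291 and 274 in KO, again without overlap (1.93 ± 0.06 SE). Pdc stood at 2148, 2530, 1840 and 1835 CPM in WT and at 1238, 1028, 916 and 933 in KO, without overlap (-1.02 ± 0.12 SE, edgeR adjusted p = 1.62e-05). Sag was not called (0.02 ± 0.07 SE, edgeR adjusted p = 0.820).

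Among the genes that stood apart in P19 rods, Fgf2 (log2 3.67 ± 0.06 SE), Cebpd (3.89 ± 0.07), Edn2 (6.83 ± 0.08) and Junb (1.30 ± 0.12) rose in bulk retina. Asns rose by 0.67 ± 0.06 and Scd2 by 0.73 ± 0.05 on the log2 scale. Mef2c fell by 1.30 ± 0.07 and Rabgef1 by 1.30 ± 0.06. Atf4 (0.12 ± 0.06, edgeR adjusted p = 0.162) and Ddit3 (0.24 ± 0.11, edgeR adjusted p = 0.130) were not called. Malat1, lower in P19 rods, fell by 0.20 ± 0.06 (edgeR adjusted p = 0.0229), with the 4 WT libraries at 869, 893, 968 and 945 CPM and the 4 KO libraries at 796, 875, 756 and 769, which overlapped.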

How the data were processed

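Per the labels, retinae were dissociated with papain and sequenced as 10x single-cell libraries. The submitters' processing notes name Cell Ranger 2.1, Seurat 3.2.2, edgeR 3.20.9 and genome build mm10, and bcl2fastq, FastQC and HOMER without a version. The authors deposited 1 table of 26764 cells and 19324 genes as natural log values. These were logged 2 times: undoing 1 step gave cell sums of 10000, and undoing both gave whole numbers for 99.99998% of values (tolerance 0.01), which were used as UMIs (7 cells held a value that was not whole). For bulk retina the authors deposited raw counts per gene (22734843 to 35118164 per library). The main text of the paper does not name their aligner or counter. RPE libraries were not used.

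UMIs of rods were summed per library. Levels are CPM, ratios are log2 of CPM with a prior count of 0.5, and intervals are exact Poisson (levels) or exact binomial (shares, ratios) at 95%. Genes needed 50 UMIs in both genotypes together. Rods over 3 ages were tested with limma 3.58.1 (trend, prior count 2, age as a factor), and bulk retina with edgeR 4.0.16 (quasi-likelihood, TMM, filterByExpr), both with Benjamini-Hochberg adjustment over all genes at 0.05. DESeq2 1.42.0, R 4.3.3, Python 3.11.15, numpy 2.4.6, scipy 1.17.1 and pandas 2.3.3 were also used, and the fits were tested on simulated data. The labels do not say that the 4 bulk libraries of a group were separate animals, but a figure legend of the paper gives 4 mice for the bulk data at P30. Their p-values measure the spread between these samples.

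For bulk replicates that share a number, the correlations of deviations from the group means were 0.218, 0.172, 0.157 and 0.173. For WT 1 and KO 2 the correlation was 0.0471, and for WT 2 and KO 1 it was 0.165. For WT 3 and KO 4 it was 0.173, and for WT 4 and KO 3 it was 0.148. All correlations between numbers 1 or 2 and numbers 3 or 4 were below 0, at -0.216 to -0.0742. These values do not settle whether the numbers mark pairs or larger sets (1 and 2, 3 and 4), and the labels do not say. The bulk values above come from a fit without pairs or sets. The numbers were used only as a replicate block in an alternative fit.

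Genes named were the adiponectin receptors and ceramidases, the 10 furthest above and the 10 furthest below WT with at least 200 UMIs, the 5 in each direction that kept it at all ages with 200 UMIs at each, and the 3 members of each list with the most UMIs. Other names are marked as chosen later, and a few members of the lists are counted but not reported by name here. The members and all gene lists were chosen with earlier results of these data known. Alternatives changed the rod rule, depth, cell weights, scaling, filters and replicates.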

Additional observations from a re-analysis of the deposited data

Results flagged for a closer look

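In bulk retina at P30, single libraries stood apart from the other 3 of their group for 2 of the 14 genes checked, over 28 groups, and chance marks about 1 in 20 such groups. Scd2 was at 694 CPM in KO replicate 3, and Neurod1 at 360 CPM in WT replicate 2. The genes of the mitochondrial genome were higher in shallower KO rods at P19, with a median log2 ratio of 0.42, but had medians of -0.20 at P25 and -0.071 at P30, and this difference between ages was not tested.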

How the results depend on the processing

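Values in this part are log2 medians of KO against WT over all rods unless said otherwise, and the cause of each shift was not tested. Counts of genes at least 1.5-fold higher and lower were 854 and 1234 with at least 20 UMIs, 169 and 140 with at least 200, and 2627 and 3851 with no minimum, against 540 and 631, and 903 were higher with equal weight per rod on recovered UMIs. In shallower rods the lists were at 0.64 (large subunit), 0.76 (small subunit), 0.55 (complex I), 0.42 (mitochondrial genome) and 1.80 (immediate early), and with 11.9% of genes higher the count was 776. Thinned to 869 UMIs they were at 0.53, 0.64, 0.49, 0.39 and 1.93. For the large subunit, small subunit and complex I the values were 0.57, 0.65 and 0.49 in rods with none of the other genes (phototransduction -0.19), 0.50, 0.60 and 0.44 without the 5% deepest rods, and 0.52, 0.59 and 0.47 with equal weight. With at least 5 of 7 rod genes the large subunit was at 0.43 and complex I at 0.39, and with at least 3 of 7 the small subunit was at 0.35. The median over all genes stayed between -0.03 and 0.03. Rod shares in WT and KO were 21.3% and 23.2% with at least 3 of 7 rod genes, 16.9% and 17.3% with at least 5, 14.1% and 14.7% with none of the other genes, 40.04% and 62.6% among cells of at most 2 times the median UMIs of rods, and 6.74% and 6.31% among thinned cells. Over the ages limma called 62 genes without P19, 46 without P30 and 764 in shallower rods.

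The outer segment list turned to -0.0076 with equal weight on values after 1 inverse step, -0.045 with none of the other genes and -0.0034 when thinned, and the microtubule list to 0.032 with none of the other genes. Of the genes held by a few deep rods, the haemoglobin genes, Pmel, Tagln and Cartpt changed sign under some settings, while Acta2, Dct, Myl9, Mgll and Ptgds had fewer UMIs in KO in shallower rods too (2 and 0, 12 and 2, 3 and 2, 14 and 9, and 54 and 32). Equal weight after 1 step gave Hbb-bs -0.27 and Cartpt 0.58, and at least 5 of 7 rod genes gave Pmel 0.38. None of the other genes gave Hba-a2 -0.41, Hba-a1 -1.20, Hbb-bs -3.02, Hbb-bt -2.24, Pmel 0.97 and Cartpt 1.15. Without the 5% deepest rods Pmel was at 0.078. Shallower rods gave Hba-a2 -1.57, Hba-a1 -1.08, Hbb-bs -2.02, Hbb-bt -1.57, Tagln 0.019 (1 UMI each), Pmel 0.019 (6 each) and Cartpt 0.99. Of 294 further values of 21 lists 251 stayed within the interval of the median over all rods, and of 336 values of 24 named genes 223 stayed within the counting interval.

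In the single cells each age held 1 library per genotype, and age was a term of the limma fit, which set KO against WT within each age. In bulk retina the replicate block called 5874 genes (3233 higher, 2641 lower), and leaving out 1 library gave 4941 to 6243. Among the named genes the block changed the calls of Ptgds, Myl9 and Dct, whose bulk values are not given above, and no other. Depth limits genes under 50 UMIs in rods.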

Other observations

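Of 2 class I genes of antigen presentation, which were in none of the lists and were picked after their values were seen, H2-K1, a heavy chain, had 12 UMIs in WT rods and 52 in KO rods at P19 (log2 2.21, and 3.28 in shallower rods), and in shallower rods its ratio was 5.43 at P25 and 5.18 at P30. H2-D1, a second class I heavy chain, had 63 and 113 UMIs (0.98, and 2.17 in shallower rods). At P19 the ratio of H2-K1 was 0.45 in bipolar-like and 1.75 in Müller-like cells. In bulk retina both rose (H2-K1 by 2.47 ± 0.10 SE and H2-D1 by 1.79 ± 0.11 SE on the log2 scale, edgeR). Of 10 microglial markers, Cx3cr1, Tyrobp and Aif1 were at 0 in the rods of both genotypes at P19. The list summed to 39 UMIs in each genotype at that age. Over all rods the list summed to 34 UMIs in WT and 2346 in KO at P25, and to 138 and 640 at P30. In shallower rods at P30 its median log2 ratio was 0.13, with 2 of 4 genes higher. At P25 no marker had enough UMIs there for a ratio. In Müller-like cells at P19 all 10 markers were higher in KO, with a median of 3.02. The part of microglial RNA in the H2-K1 and H2-D1 ratios was not tested.

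Gadd45b, a stress-induced signalling protein, had 27 UMIs in WT and 166 in KO rods (2.74, and 3.93 in shallower rods), with -0.08 in bipolar-like and 1.78 in Müller-like cells. Gnb2, a further G protein beta subunit, had 122 and 315 UMIs (1.51, and 3.78 in shallower rods), and rose by 1.13 ± 0.05 SE in bulk retina (edgeR). Agtpbp1, an enzyme that trims glutamate chains from tubulin, had 316 and 720 UMIs (1.33), and rose by 1.71 ± 0.05 SE in bulk retina (edgeR).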
